A study of Mus musculus with 6 samples.

Results

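The library made at day 14 post-stroke was compared with the control (sham) library over every gene with a value of at least 1 FPKM in either of them, which left 12045 of the 15441 genes with a value anywhere in the series. FPKM is the number of fragments per kilobase of transcript and per M mapped fragments, so levels can be set side by side between genes as levels per length. Photothrombosis, in which an injected dye (Rose Bengal) is activated by light through the skull and closes the small vessels of the cortex, was done on male C57/BL6J mice aged 6 to 8 weeks, and sham mice received no illumination. RNA came from the whole ipsilateral cerebral cortex, so infarct, border and uninjured tissue lie in the same tube. Each of the 6 libraries held the pooled RNA of 3 mice, and the control mice were taken at day 7 after the operation. With 1 library per group there is no replicate check, no test was run, and "higher" and "lower" below describe these libraries only.

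After cortical ischaemia, dying neurons release debris that resident microglia and infiltrating macrophages engulf, while astrocytes around the lesion become reactive and fibroblasts lay down collagen in the core. Interferon signalling is known as a further branch of the glial response: interferons bind their receptors, a complex that holds STAT2 and IRF9 enters the nucleus, and genes with an interferon-stimulated response element in their promoters are transcribed. These genes include antiviral proteins, the MHC class I machinery and lymphocyte-attracting chemokines.

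The day 14 library stood apart from the others in what it listed. It held 79330 transcript events, against 87466 to 93931 in the other libraries. Genes that were listed in all 5 other libraries and missing from this one numbered 332, against 51 to 160 for each other library. Because widely expressed genes were among them, a gene absent from a library is called not listed, and no ratio is printed for it as a single gene. Counts and list medians do include such a gene, with 0 FPKM taken for the library that does not list it. The depth of each library is unknown, since only FPKM was used, so no counting interval is given.

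Of the 12045 genes, 1081 (8.97%) were higher at day 14 and 834 (6.92%) were lower, by a log2 ratio of at least 1 in size after 0.1 FPKM was added to each value. Of these, 192 of the higher and 296 of the lower genes were listed in 1 of the compared libraries and not in the other. The added 0.1 understates differences of genes at low levels. Among the higher genes, 554 had under 1 FPKM in control, so they had entered the comparison only through day 14. Over the 11277 genes with at least 1 FPKM in control, 527 (4.67%) were higher and 834 (7.4%) were lower, and the median log2 ratio was 0.06. All 834 lower genes met that stricter entry rule because a lower gene cannot enter through day 14.

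The log2 ratio was lower for longer transcripts, and this runs through each result given here. The Spearman correlation across genes, which do not count as independent replicates, between the log2 ratio and the length of the longest annotated transcript was -0.41. In the shortest 10% of genes, of up to 1288 nt, the median log2 ratio was 0.43, and 18.0% were higher and 4.07% lower. In the longest 10%, from 6907 nt, the median was -0.35, with 4.15% higher and 19.9% lower. The median longest transcript was 2412 nt in the higher set and 5270 nt in the lower set, with 3406 nt over the whole comparison. Against the same control, this correlation was -0.25 on day 1, 0.0043 on day 3, -0.088 on day 7 and -0.035 on day 28. A length-corrected log2 ratio, from which the median of genes of like length was subtracted, left a correlation of -0.06 and is given beside the plain one below. After that correction 914 genes (7.59%) were higher and 826 (6.86%) were lower, of which 834 and 737 were also past the threshold before it. The ratio was also related to the GC content of the transcript, with a Spearman correlation of 0.24 before the length correction and 0.16 after it. The part of RNA quality or library preparation in this trend was not tested.

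**Figure D1:**
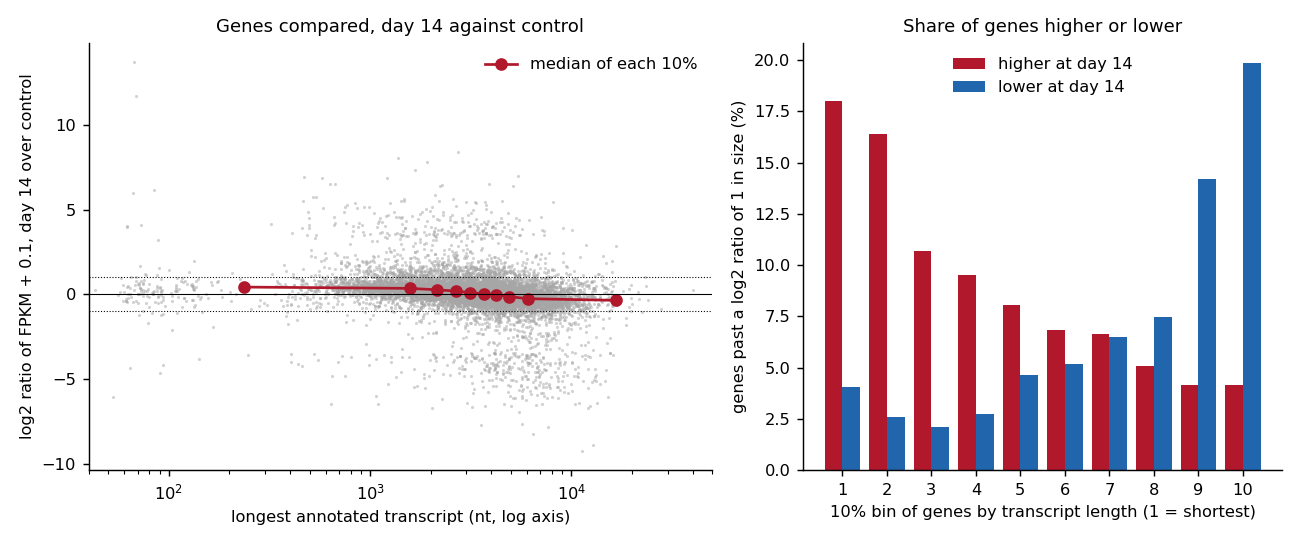
Left, log2 ratio of day 14 over control (FPKM + 0.1) for each gene compared against the length of its longest transcript (log axis), with the median of each 10% of genes by length in red; right, the percentage of each such bin that was higher or lower by a log2 ratio of at least 1. The medians go from 0.43 in the shortest bin to -0.35 in the longest, and the share of lower genes from 4.07% to 19.9%.

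Interferon-stimulated genes were higher at day 14 as a group. Of 67 listed for the pathway, 57 had a value and 47 were compared, 25 of them only because of their day 14 level. In all, 39 were higher, 0 were lower and 8 lay within the threshold, with a median log2 ratio of 2.07 and 2.00 after length correction. The median over all genes compared was 0.10 before the correction and -0.0038 after it. Among the 22 members with at least 1 FPKM in control, 15 were higher and the median was 1.43, against 4.67% of all such genes. Of those 22, 10 had their highest value of the 6 libraries at day 14 and 9 on day 7, and their median on day 7 was 1.31. Over all genes with at least 1 FPKM in control, 26.9% were highest at day 14, and 56.0% of the higher ones were. These shares are to be set beside the same counts in the groups below. In a bulk sample, more cells of a type and more RNA per cell cannot be told apart, here and in all groups below.

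Irf7, the transcription factor that amplifies type I interferon signalling (chr7:141262706-141266481, minus strand, mm10), was at 0.0669 FPKM in control and 5.14 on day 14. Its levels at days 1, 3, 7 and 28 were 0.129, 0.798, 3.10 and 1.18, so each library was higher than the one before it up to day 14. Ifi27l2a, a small interferon-induced membrane protein, went from 0.254 in control through 1.60, 5.74 and 13.7 to 15.9 on day 14, and was at 1.80 on day 28. Bst2, the tetherin that holds budding viruses at the cell surface, was at 3.10 in control, 4.55, 10.6 and 21.0 on days 1 to 7, 24.7 on day 14 and 4.06 on day 28. These 3 genes had the same order of libraries from control to day 14.

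Usp18, which restrains interferon receptor signalling, was at 0.550 FPKM in control and 6.14 on day 14, the highest of its 6 values. The same held for Rtp4, a chaperone of receptors induced by interferon, at 0.841 and 7.21, and for Gbp2, a GTPase directed at intracellular pathogens, at 0.662 and 5.63. Stat2, a transducer of the signal itself, was at 2.13 in control and at 4.53 on day 14, and was higher at day 7, at 5.16.

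Several members were not listed in control at all. Ccl5, a chemokine that attracts T cells, was at 0.528, 0.620, 1.38, 9.12 and 0.545 FPKM at days 1, 3, 7, 14 and 28. Cxcl10, which attracts T cells through CXCR3, was at 2.21, 1.17, 3.42, 8.33 and 0.391 on the same days. Zbp1, a sensor of left-handed nucleic acid, was at 4.22 on day 14 and at 1.21 on day 7, and Oas1a, which makes the activator of RNase L, was at 3.15 and 2.71. The day 14 value of each was the highest listed for it.

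The promoters of these genes were searched for GAAANNGAAA, the core letters of the interferon-stimulated response element, on both strands of the 250 bases before the start site in RefSeq (GRCm38.p6). Of the 39 higher interferon-stimulated genes, 27 had a promoter sequence and 15 held the motif, or 55.6%. The motif was in 3.46% of the promoters of all 27025 genes with a sequence, in 3.12% of those of the genes compared, in 5.80% for higher genes and in 3.02% for lower genes. Of the 793 higher genes with a sequence, 46 held it, and the 15 interferon-stimulated genes are among these 46. A list of interferon-induced genes is known for this element, so the share describes the list and not the day. The following 4 stretches show it in Cxcl10 and Oas1a, the 2 motif-bearing members that came first when a control value of 0 plus the added 0.1 was used for both, so that their order follows their day 14 level, and in the 2 others with the highest FPKM at day 14, Bst2 and Ifit3. Sequences run 5′ to 3′ on the gene's strand, and capitals mark the letters of each match.
Cxcl10 (chr5:92349048-92349139, minus strand): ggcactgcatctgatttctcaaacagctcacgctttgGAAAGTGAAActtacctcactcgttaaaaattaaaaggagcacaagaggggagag
Oas1a (chr5:120907526-120907590, minus strand): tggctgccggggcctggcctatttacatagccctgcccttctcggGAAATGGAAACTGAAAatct
Bst2 (chr8:71537548-71537647, minus strand): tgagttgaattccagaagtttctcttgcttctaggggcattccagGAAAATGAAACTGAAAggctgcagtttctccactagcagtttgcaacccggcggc
Ifit3 (chr19:34583328-34583427, plus strand): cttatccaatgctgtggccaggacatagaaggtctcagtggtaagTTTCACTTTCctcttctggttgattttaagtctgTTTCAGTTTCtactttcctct

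In Cxcl10 the match began 213 bases before the start site, and in Oas1a 20 bases before it. Oas1a and Bst2 each hold 2 overlapping matches, and Ifit3 holds 2 separate ones on the opposite strand. Ifit3, whose protein binds other IFIT proteins against viral RNA, was at 4.71 FPKM in control, 15.2 on day 7 and 17.9 on day 14. It shares near-identical sequence with Ifit3b, and how reads were split between them is uncertain.

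MHC class I presentation, by which cells show peptides to CD8 T cells, was higher in the same library. Of 20 genes listed, 18 were compared, 5 of them only through day 14. There were 13 higher and 0 lower, with a median log2 ratio of 1.49 (1.24 after length correction). Among the 13 members with at least 1 FPKM in control, 8 were higher, the median was 1.42 and 10 were highest at day 14. B2m, the light chain of every class I molecule, was at 71.1, 91.6, 155, 239, 308 and 91.6 FPKM in control and at days 1, 3, 7, 14 and 28. H2-D1 and H2-K1, the classical heavy chains, were at 11.1 and 9.38 in control, 45.5 and 20.2 on day 7 and 58.2 and 43.1 on day 14. These heavy chains are close copies of each other, so the split of reads among them is uncertain. Psmb8 and Psmb9, catalytic subunits of the immunoproteasome, were at 1.39 and 0.537 in control and 7.34 and 3.75 on day 14. Tap1, a subunit of the peptide transporter, was at 0.664 and 3.72. The 3 last-named genes also stand in the interferon list.

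MHC class II presentation, used by macrophages and other antigen-presenting cells towards CD4 T cells, had 7 of 14 listed genes compared, 3 of them only through day 14. All 7 compared were higher, with a median log2 ratio of 3.04, and 6 were so after length correction. The 4 with at least 1 FPKM in control were all higher, with a median of 1.98. H2-Aa, an alpha chain, was at 1.16 FPKM in control, 6.23 on day 7, 11.1 on day 14 and 2.38 on day 28. H2-Ab1, its beta chain, was at 0.782, 4.42, 8.83 and 2.02 in the same libraries. Ctss, the cathepsin that trims the invariant chain, was at 43.4 in control, 196 on day 7 and 178 on day 14.

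**Figure D2:**
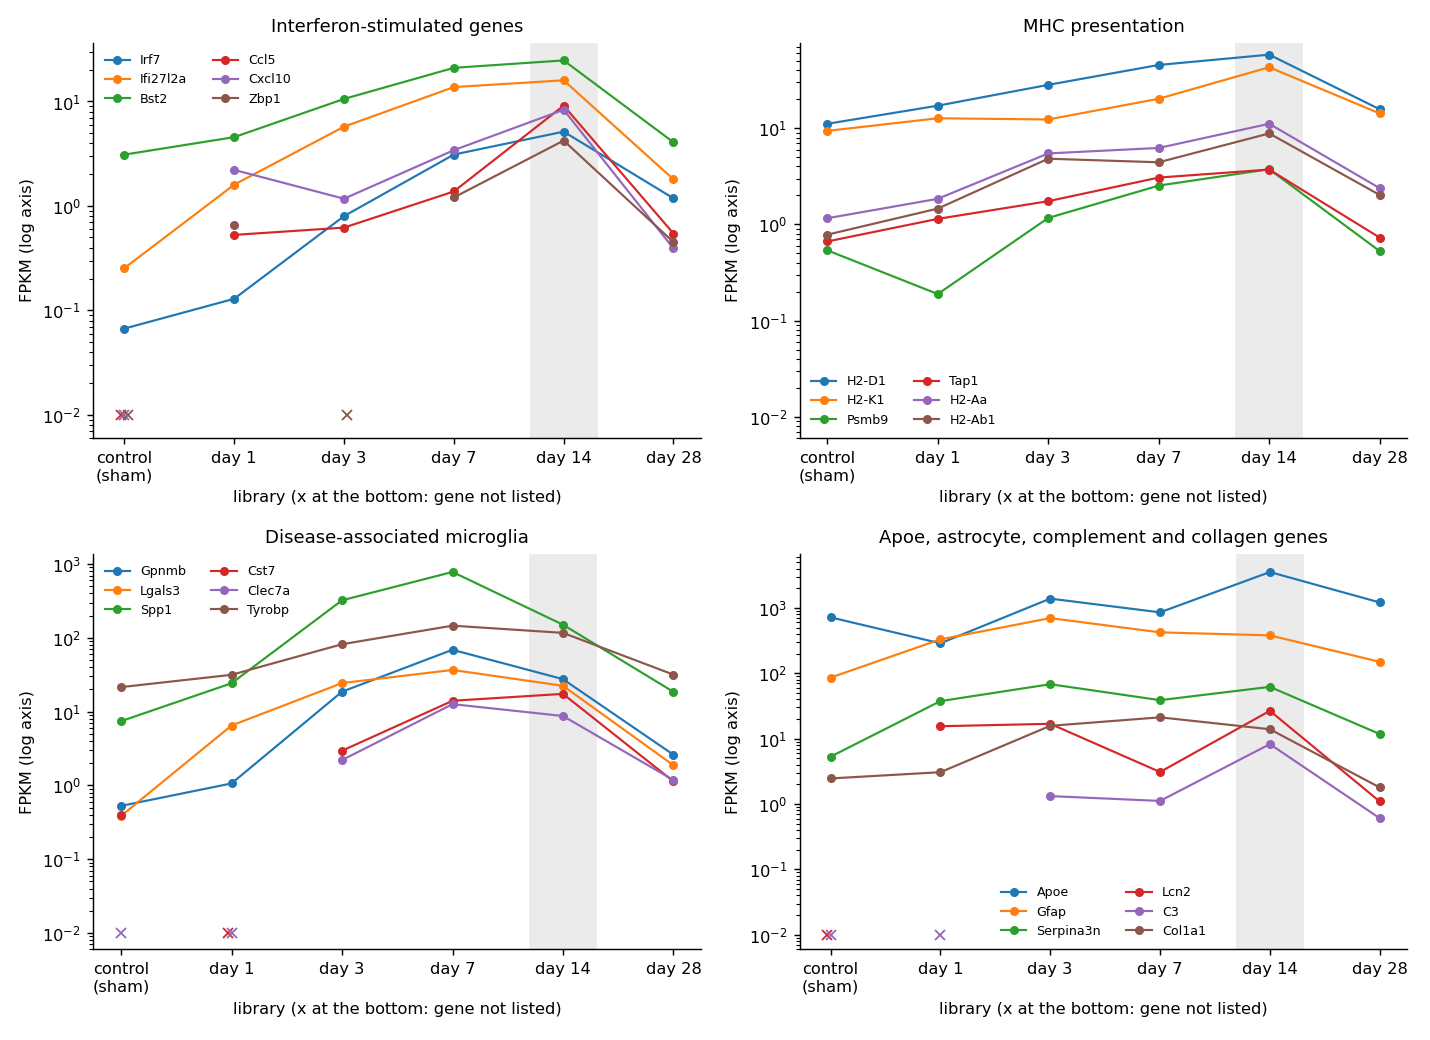
FPKM (log axis) of single genes in the 6 libraries, 1 pooled library per point, with day 14 shaded and a cross at the bottom where a gene was not listed. The interferon-stimulated and MHC genes drawn, a selection, have their highest point at day 14. In the full lists, 31 of 47 interferon, 14 of 18 class I and 4 of 7 class II genes compared were highest at day 14. On day 7 it was 12, 3 and 3 of them. Of the genes compared, 25, 5 and 3 had passed only through day 14, which favours day 14 in these counts. Among members with at least 1 FPKM in control, 10 of 22, 10 of 13 and 2 of 4 were highest at day 14. Over all genes compared the share was 28.3%, and 26.9% over those with at least 1 FPKM in control. Gpnmb, Lgals3, Spp1, Clec7a and Tyrobp have their highest point at day 7, and Apoe reaches 3534 FPKM on day 14.

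Genes of disease-associated microglia, the phagocytic state that microglia take up near damage, were higher at day 14, but for most of them day 7 was higher still. Of 25 listed, 23 were compared, 6 only through day 14, and 19 were higher and 0 lower. The median log2 ratio was 2.12 (1.69 after length correction), and 1.73 among the 17 members with at least 1 FPKM in control, of which 13 were higher. Of those 17, 4 were highest at day 14 and 12 on day 7, while 26.9% of all such genes were highest at day 14. Of all 1081 higher genes, 590 were highest at day 14 and 250 on day 7. Gpnmb, a glycoprotein of phagocytes filled with debris (chr6:49036546-49070929, plus strand), was at 0.528 FPKM in control, 1.06, 18.6 and 68.9 on days 1 to 7, 27.6 on day 14 and 2.60 on day 28. Lgals3, the galectin that binds damaged membranes, was at 0.386 in control, 36.7 on day 7 and 22.4 on day 14. Spp1, or osteopontin, was at 7.42 in control, 783 on day 7 and 151 on day 14. Trem2, the lipid receptor that drives this state, was at 9.49, 63.2 and 44.4 in those libraries, and its adaptor Tyrobp at 21.5, 146 and 117.

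Cst7 and Apoe were among the 5 of the 23 compared with their highest value at day 14. Of all genes compared, 28.3% were highest there. Cst7, an inhibitor of cathepsins, was at 0.403 FPKM in control, 14.0 on day 7 and 17.4 on day 14. Apoe, the lipid carrier that astrocytes and reactive microglia secrete (chr7:19696109-19699188, minus strand), was at 716 in control, 287 on day 1, 1386 on day 3, 855 on day 7, 3534 on day 14 and 1212 on day 28. It was 4.93-fold higher at day 14 than in control, the largest difference in FPKM of any protein-coding gene, and its length-corrected log2 ratio was 1.90. It makes up most of the summed FPKM of its list, 5398 on day 14 against 1272 in control.

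Homeostatic microglia genes had a median log2 ratio of 0.71, with 5 of 12 compared higher and 0 lower, and 4 of the 11 with at least 1 FPKM in control higher. Csf1r, the growth factor receptor of microglia, was at 23.9 FPKM in control, 52.3 on day 7 and 38.9 on day 14. P2ry12, the purine receptor of resting microglia, was at 18.0, 17.7 and 13.3. Cx3cr1, a defining marker of microglia, was not listed in control or at days 3, 7 and 28, and was at 1.84 on day 14, so it gives no ratio.

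Lysosomal proteins, which break down what phagocytes take up, were higher for 17 of 48 compared and lower for 0, with a median log2 ratio of 0.65 (0.54 after length correction). Of the 47 with at least 1 FPKM in control, 16 were higher, and day 7 was the highest library for 28 and day 14 for 9. The share of all genes highest on day 7 was not counted. Lyz2, lysozyme of macrophages, was at 6.73 FPKM in control, 357 on day 7 and 196 on day 14. Ctsd, an aspartic protease, was at 124, 1169 and 486, and Cd68, a macrophage lysosomal glycoprotein, at 4.32, 29.8 and 19.0. Lipid loading and cholesterol efflux genes included 9 higher and 0 lower of 20 compared, with a median of 0.82, and 7 higher of the 18 with at least 1 FPKM in control, with a median of 0.65. Apoc1, an apolipoprotein gene next to Apoe, was at 1.48 in control, 5.40 on day 7 and 15.6 on day 14, while Plin2, which coats lipid droplets, was at 1.37, 44.7 and 11.9. Abca1, which exports cholesterol, was at 3.00, 16.4 and 7.94. Of these 3, Apoc1 had its highest value at day 14.

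Complement genes were higher for 10 of 14 compared and lower for 1, with a median log2 ratio of 1.93, and 5 of the 14 had passed only through day 14. Of the other 9, 5 were higher and 1 lower, with a median of 1.67. The chains of C1q, which tag synapses and debris, were at 42.5 (C1qa), 41.4 (C1qb) and 16.5 FPKM (C1qc) in control and at 196, 199 and 94.0 on day 14. All of them were higher at day 7, at 259, 219 and 117. C3, the hub of the cascade, was not listed in control or at day 1, and was at 1.32, 1.12, 8.25 and 0.607 on days 3, 7, 14 and 28, with its high point at day 14. Cd55, which restrains C3 cleavage, was the lower member, at 1.09 in control and 0.270 on day 14.

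Chemokines were higher for 13 of 18 compared and lower for 0, and 10 of the 18 had passed only through day 14. Their median was 2.13 over those 18 and 0.66 over the 8 with at least 1 FPKM in control, of which 3 were higher. Besides Ccl5 and Cxcl10, Ccl8, a monocyte attractant, was at 0.657 FPKM in control, 0.760 on day 7 and 4.53 on day 14, and Ccl12, a ligand of CCR2, at 0.602, 4.27 and 7.78 with 12.7 on day 1. T cell and NK cell genes were sparse: of 21 listed, 10 had a value and 3 were compared, 1 of them only through day 14. Apart from Ccl5 these were Cd4, at 2.56 in control and 4.43 on day 14, and Trbc2, a constant region of the T cell receptor, at 11.4 and 8.73. Of the B cell and plasma cell list, 3 of 12 were compared, 2 of them only through day 14, and 1 was higher, Cd79a, at 1.03 on day 14 and not listed in control. Of the neutrophil list 3 of 14 were compared, and 2 of these had passed only through day 14, S100a8 at 0.0729 in control and 3.84 on day 14 and S100a9 at 5.32 with no listing in control. Csf3r, the receptor of a granulocyte growth factor and the member with at least 1 FPKM in control, was at 1.3 and 3.04.

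Pattern recognition receptors, which sense microbial and damage-derived molecules, had 11 higher and 2 lower of 18 compared, but 11 of the 18 had passed only through day 14. Of the other 7, 2 were higher and 2 lower, with a median log2 ratio of 0.64. Tlr2 was at 0.541 FPKM in control, 4.75 on day 7 and 2.92 on day 14. Tlr3, a sensor of double-stranded RNA, was at 3.03 in control and 1.88 to 4.47 on days 1, 3, 7 and 28, and was not listed at day 14. Fc receptors and phagocytic receptors were higher for 11 of 23 and lower for 0, 4 of the 23 having passed only through day 14. Of the other 19, 7 were higher, with a median of 0.47. Fcer1g, the shared Fc receptor chain, was at 8.6 in control, 51.2 on day 7 and 43.7 on day 14. Cytokines and their receptors were higher for 8 and lower for 2 of 33, of which 6 had passed only through day 14. Of the other 27, 4 were higher and 2 lower, with a median of 0.40. Osmr, the receptor of oncostatin M, was at 0.0306 in control and 2.59 on day 14, and Tgfbr1, a receptor of TGF-beta, at 5.30 and 0.855.

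Reactive astrocyte genes were higher for 21 of 27 compared and lower for 1, with a median log2 ratio of 2.15 (1.99 after length correction), and 10 of the 27 had passed only through day 14. The list is not separate from those above. Cxcl10, Gbp2 and Psmb8 also stand in the interferon list, H2-D1 and H2-T23 in the MHC class I list and Serping1 in the complement list. Among the 17 with at least 1 FPKM in control, 11 were higher, the median was 1.43 and 5 were highest at day 14. Of all such genes, 26.9% were highest at day 14. Gfap, the intermediate filament of reactive astrocytes (chr11:102887336-102900912, minus strand), was at 85.8, 330, 698, 422, 380 and 150 FPKM in control and at days 1, 3, 7, 14 and 28. It was 4.43-fold higher at day 14 than in control, below its level at day 3. Vim, vimentin, was at 15.5 in control, 167 on day 3 and 67.6 on day 14. Serpina3n, a protease inhibitor, was at 5.30, 37.5, 68.0, 38.8, 62.0 and 11.8 across the libraries, with high values at days 3 and 14 and a lower one between them. Lcn2, an iron-binding lipocalin, was likewise lower at day 7 than on either side of it: it was not listed in control and was at 15.5, 16.9, 3.09, 26.6 and 1.1 on days 1, 3, 7, 14 and 28. Timp1, an inhibitor of metalloproteases, was at 0.278 in control, 16.5 on day 3 and 6.86 on day 14. The lower member was Nes, nestin, at 1.27 in control and not listed at day 14.

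The general astrocyte markers all lay within the threshold. Of 15 compared, 0 were higher and 0 lower, with a median log2 ratio of 0.0052. Gja1, the gap junction protein of astrocytes, was at 58.8 FPKM in control and 59.0 on day 14, and Aqp4, the water channel of their endfeet, at 27.0 and 24.0. Oligodendrocyte markers gave 0 higher and 0 lower of 16, with a median of 0.02, and Mbp, myelin basic protein, was at 1241 and 1409. Differences under the threshold cannot be read as sameness without replicates.

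Fibrous matrix and basement membrane genes were higher for 20 of 39 compared and lower for 0. Their median log2 ratio was 1.09, and length correction moved it to 1.19 because many of these transcripts are long, with a median of 5784 nt. Of the 30 with at least 1 FPKM in control, 14 were higher. Col1a1 (chr11:94936224-94953042, plus strand), a chain of fibrillar collagen I, was at 2.46, 3.07, 15.7, 21.2, 13.9 and 1.79 FPKM in control and at days 1, 3, 7, 14 and 28. Col3a1, collagen III, was at 1.04 in control, 21.6 on day 7 and 12.8 on day 14, and Lum, a collagen-binding proteoglycan, at 1.37, 6.18 and 6.87. Postn, periostin, was at 0.208, 3.61 and 1.88. Meningeal fibroblast markers, which hold some of the same collagens, were higher for 5 of 13 and lower for 0, with a median of 0.87. Their summed level was 2134 FPKM on day 14 and 856 to 1259 in the other 5 libraries, and most of it was Ptgds, the prostaglandin D synthase of leptomeninges, at 1075 in control and 1969 on day 14. The part of meninges in the sample in the matrix result was not tested.

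**Figure D3:**
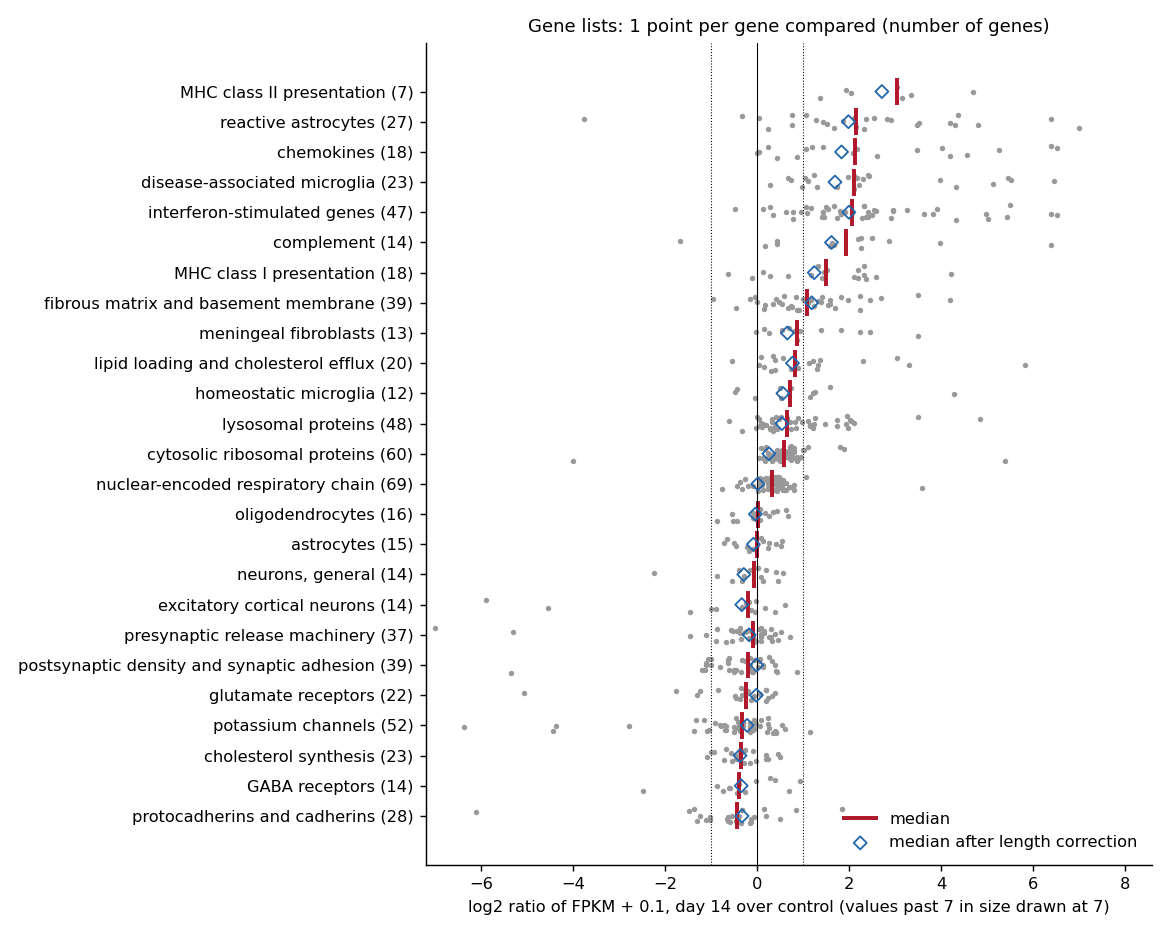
Log2 ratios of day 14 over control for the members compared of 25 gene lists, 1 grey point per gene, with the list median as a red bar and the length-corrected median as a blue diamond; dotted lines mark a log2 ratio of 1 in size. Immune, reactive astrocyte and matrix lists lie to the right, from 3.04 for MHC class II to 0.65 for lysosomal proteins. The general astrocyte list lies at 0.0052. Synaptic and channel lists lie near or left of 0, down to -0.44 for protocadherins and cadherins. Medians include genes that passed only through day 14. Over members with at least 1 FPKM in control they were 1.98 for MHC class II and 0.66 for chemokines. Reactive astrocytes and interferon-stimulated genes were then both at 1.43.

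Neuronal genes differed less, and part of what differed went with length. Over all genes compared, 6.92% were lower and 8.97% higher, and these shares are to be set beside the counts of the neuronal lists. General neuronal markers were higher for 0 and lower for 1 of 14 compared, with a median log2 ratio of -0.07. Rbfox3, the NeuN antigen, was at 89.9 FPKM in control and 91.5 on day 14, and the lower member was Map2, a dendritic microtubule protein, at 113 and 23.7. Excitatory cortical neuron markers were lower for 4 of 14 and higher for 0, with a median of -0.20 (-0.33 after length correction). They included Cux2, an upper-layer transcription factor, at 15.3 and 5.53, Rasgrf2, an upper-layer exchange factor, at 22.5 and 11.2, and Foxp2, a transcription factor of deep-layer neurons, at 2.25 in control and not listed at day 14. Slc17a7, the vesicular glutamate transporter VGLUT1, was at 303, 300, 248, 231, 164 and 251 across the libraries and was lowest at day 14. Its log2 ratio was -0.89, and -1.02 after length correction, which put it past the threshold in place of Rasgrf2. Interneuron markers gave 1 higher and 0 lower of 11, with a median of 0.14, and the higher member was Calb2, calretinin, at 10.8 and 23.

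Glutamate receptor genes were lower for 4 of 22 compared and higher for 0, with a median of -0.24 that length correction moved to -0.02. Their median longest transcript was 5493.5 nt, and 14.2% of all genes of 5345 to 6905 nt were lower. Gria2, the subunit that keeps AMPA receptors impermeable to calcium, was at 119 FPKM in control, 69.5 to 109 on days 1, 3, 7 and 28 and 34.7 on day 14. Gria4 was at 20.9 in control and 8.36 on day 14, and Grm5, a metabotropic receptor, at 24.9 and 10.5. Grin2a, an NMDA receptor subunit, was at 3.28 in control and 7.15 to 12.3 on days 1, 3, 7 and 28, and was not listed at day 14. Its longest annotated transcript has 14634 nt.

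Postsynaptic density and synaptic adhesion genes were lower for 7 of 39 and higher for 0, with a median of -0.21. Their median length was 6326 nt, in the bin of 5345 to 6905 nt where 14.2% of all genes were lower. After length correction 1 was lower, Cntnap4, which was at 3.99 in control and not listed at day 14, and the median was -0.0073. Homer1, a scaffold of the postsynaptic density, was at 24.5 FPKM in control, 25.0 to 28.0 on days 1, 3, 7 and 28 and 12.2 on day 14. Potassium channels were lower for 9 of 52 and higher for 1, which had passed only through day 14, with a median of -0.32 (-0.22 after correction, with 8 lower). Kcnma1, the large-conductance calcium-activated channel, was at 16.9 in control and 2.37 on day 14, and Kcnj9, a G protein-gated channel, at 35.3 and 13.5. GABA receptors gave 1 lower and 0 higher of 14, with a median of -0.39. The lower member was Gabrg3, at 2.84 and 0.423. Median lengths were 4590.5 nt for potassium channels and 4729.5 nt for GABA receptors. Of all genes of 4498 to 5339 nt, 7.46% were lower.

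Presynaptic release genes were lower for 4 of 37 and higher for 0, with a median of -0.09. Their median length was 4605 nt, in the bin of 4498 to 5339 nt where 7.46% of all genes were lower. After correction 5 were lower. Stx1a, the syntaxin of the release complex, was at 83.1 FPKM in control, 26.1 on day 1 and 38.5 on day 14, and Synj1, a phosphatase of vesicle recycling, at 62.4, 25.7 and 22.7. Syt1, the calcium sensor of release, was at 293 in control and 161 on day 14, and Snap25, another part of the complex, at 706 and 486. Protocadherins and cadherins were lower for 8 of 28 and higher for 1, with a median of -0.44 (-0.33 after correction, with 5 lower). Their median length was 6196 nt, in the bin of 5345 to 6905 nt where 14.2% of all genes were lower. Pcdh7 was at 17.9 in control, 12.6 to 13.6 on days 1, 3, 7 and 28 and 7.14 on day 14. The higher member was Fat1, at 2.23 and 8.30, whose transcript of 14814 nt runs against the length trend.

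Genes for short, abundant transcripts lay on the other side. Cytosolic ribosomal protein genes, whose median longest transcript was 1054 nt, had a median log2 ratio of 0.60. Of the 60 compared, 47 were highest at day 14, against 28.3% of all genes compared. Past the threshold, however, were 5 upward and 1 downward. Length correction left a median of 0.26. Rplp0, of the ribosomal stalk, was at 54.1 FPKM in control, 173 to 179 on days 1, 3 and 7, 190 on day 14 and 55.4 on day 28. Rpl29 was at 1.48, 1.55, 52.7, 66.5 and 42.0 in control and at days 1, 3, 14 and 28 and was not listed at day 7, and Rpl41 was at 179 in control, 0.491 on day 1, 154 on day 7 and 11.1 on day 14. Such swings between libraries, in genes with many processed copies, make single values of this family uncertain. Nuclear-encoded respiratory chain genes, with a median of 1231 nt, gave 2 higher and 0 lower of 69. Their median log2 ratio was 0.34, and 0.02 after length correction.

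Markers of other brain regions and linings were compared as a check on the labelled tissue. Cortical markers such as Slc17a7 and Fezf2 (5.82 FPKM in control and 8.95 on day 14) were present in both libraries. Hypothalamic peptides had 7 of 11 listed genes compared, 5 only through day 14, and the other 2 lay within the threshold. Avp, vasopressin, was not listed in control and was at 18.9, 4.24, 18.1, 11.7 and 3.01 on days 1, 3, 7, 14 and 28. Oxt, oxytocin, was at 9.28, 0.637, 7.46, 5.15 and 1.48 on those days and was also not listed in control. The summed level of the 7 was 9.99 in control, 38.7 on day 14 and 15.4 to 70.5 in the other post-stroke libraries. Ependymal markers were higher for 5 of 10 and lower for 0, and for 3 of the 8 with at least 1 FPKM in control, with a summed level of 73.8 on day 14 and 41.0 to 51.7 elsewhere. Hippocampal neuron markers were higher for 3 of 7 and lower for 0, and for 2 of the 6 with at least 1 FPKM in control, with sums of 44.0 in control and 66.5 on day 14. Choroid plexus markers were higher for 0 and lower for 0 of 8. The part of differing dissection in the gene groups above was not tested.

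Among single protein-coding genes listed in both libraries, the 10 with the largest log2 ratios were Ssc4d, Lgals3, Ifi27l2a, Gpnmb, Rpl29, Cst7, Irf7, Lyz2, Pou2f2 and S100a8, and 9 of these were also among the 10 largest after length correction. Ssc4d, a scavenger receptor protein, led with 0.0659 FPKM in control and 55.0 on day 14, but it was at 98.1 on day 1 and not listed at days 3, 7 and 28. Pou2f2, a transcription factor of B cells and macrophages, was at 0.0761 in control, 1.72, 2.99 and 4.07 on days 3, 7 and 14 and 0.753 on day 28. Genes with the highest day 14 level that were not listed in control were Lcn2, Mllt11, Phf5a, Avp, Clec2d, Ccl5, Tram1l1, Cxcl10, C3 and S100a9, from 26.6 down to 5.32. Of these, Clec2d (11.7) and Tram1l1 (9.0) were listed in no other library, and 4 of the 10 were listed at all of days 1, 3, 7 and 28. By difference in FPKM, Apoe, Fth1, Ptgds, Cst3, Tmsb4x, Ctsd, Gfap, Rps15, Ftl1 and Mt1 led. Fth1 and Ftl1, the ferritin chains, were at 1849 and 183 in control and 2796 and 440 on day 14.

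The 10 genes with the smallest log2 ratios were Dok6, Dlc1, Mbd5, Cbl, Nwd2, Yes1, Phip, Mrtfb, Pdpk1 and Diaph1. All 10 were listed in all of the other libraries, and their longest transcripts had a median of 8414.5 nt. All 10 also had their lowest value at day 14, which their choice by a small ratio largely sets. The same held for 654 of all 834 lower genes. Mrtfb, a coactivator of serum response factor (chr16:13256481-13417529, plus strand), was at 17.0, 16.2, 17.6, 17.5, 0.607 and 19.0 FPKM in control and at days 1, 3, 7, 14 and 28. Dlc1, a GTPase-activating protein, was at 6.32, 5.51, 5.67, 5.44, 0.0229 and 5.20. Cbl, a ubiquitin ligase of receptor kinases, was at 5.53, 4.84, 6.98, 6.34, 0.0645 and 5.67. Each of these 3 genes kept a narrow range in 5 libraries and was far below it in the day 14 library alone. Length correction left 8 of the 10 names in place and brought in Rpl41 and Rrm2b.

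The highest control values without a listing at day 14 belonged to Psd3, Apc, Rims1, Reps2, Pter, AI593442, Pnma2, Fut9, Tmem196 and Mex3c. Psd3, an exchange factor of the postsynaptic density (chr8:67689082-68212027, minus strand), was at 58.9 FPKM in control and 40.8, 50.0, 48.8 and 51.1 on days 1, 3, 7 and 28. Apc, a scaffold of Wnt signalling, was at 46.2 in control and 24.4 to 38.0 on those days. Mex3c, an RNA-binding ubiquitin ligase, was at 9.49 in control and 8.36 to 9.59. Of the 10, 8 were listed in all of the other libraries. By difference in FPKM, the largest deficits were in Kif5a, Snap25, Atp1b1, Rpl41, Slc17a7, Syt1, Gpm6a, Hnrnpk, Ywhaz and App, and 8 of these had their lowest value at day 14. Kif5a, the neuronal kinesin heavy chain, was at 564 in control, 437.6 to 459 on days 1, 3, 7 and 28 and 272 on day 14.

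**Figure D4:**
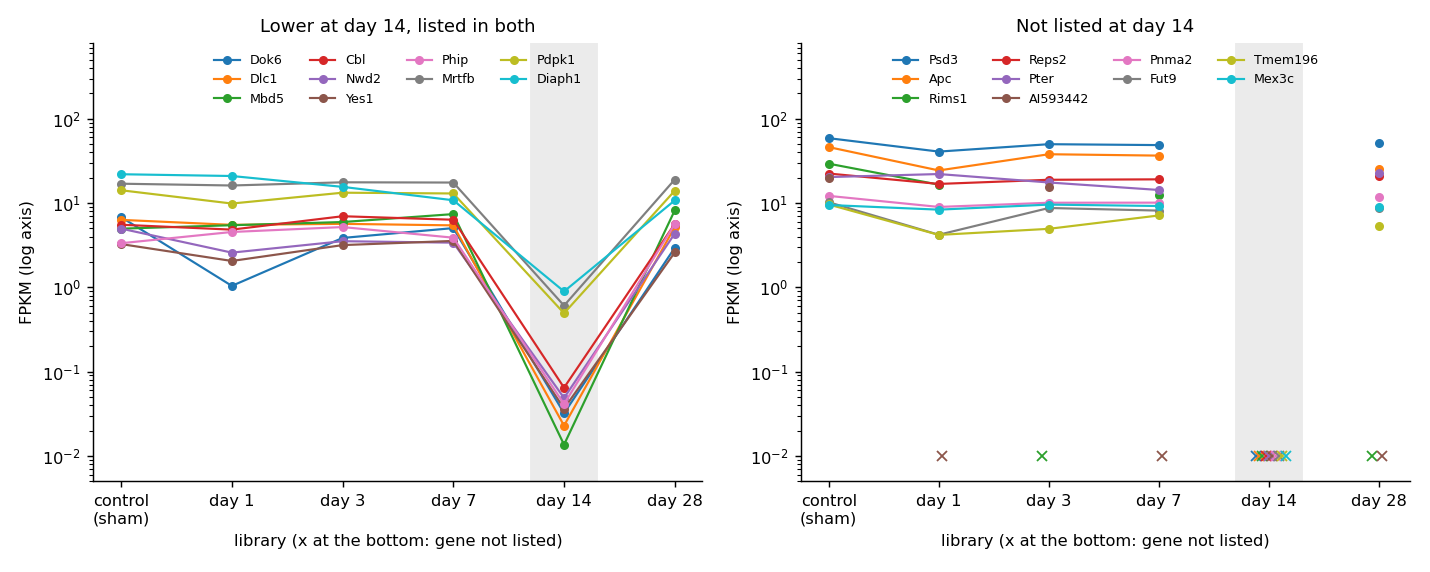
FPKM (log axis) in the 6 libraries of the 10 genes with the smallest log2 ratios (left) and of the 10 with the highest control values that were not listed at day 14 (right); a cross at the bottom marks a gene not listed. On the left all 10 lines are lowest at day 14, which the choice by ratio largely sets. They are higher again at day 28, as for Mrtfb at 17.5, 0.607 and 19.0 FPKM at days 7, 14 and 28.

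Genes of this shape were counted over the whole comparison. Of the 12045 genes, 7061 lay within 1.5-fold of control at each of days 1, 3, 7 and 28. Of those 7061, 251 were lower at day 14 and 52 were higher. As shares of the 7061, both lie below the 6.92% lower and 8.97% higher over all genes compared. The 251 had a median longest transcript of 5668 nt and the 52 one of 1569 nt. Of the 332 genes listed in every library but this one, 207 had a median of at least 1 FPKM in the others, against 10 to 44 genes for each other library.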

How the data were processed

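RNA-seq of the ipsilateral cortex was analysed in 6 libraries, each the pooled RNA of 3 mice, of which the day 14 and control libraries were compared. Poly(A) RNA was turned into directional libraries and read in pairs of 150 bases, with 33.6 M reads per sample stated as the average. The submitters' processing notes name Trimmomatic 0.30, HISAT2 2.0.1, HTSeq 0.6.1 and mm10. The deposited values are FPKM that the authors computed for transcript starts, ends and splicing events, by a program not given in the sources used here. After 4171 repeated events were left out at day 14, a gene's value was the largest of its summed starts, summed ends and any single event. It is not below the authors' FPKM of any single event, and it can include neighbouring genes joined in a locus.

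Genes of at least 1 FPKM in either library were compared by log2 ratio with 0.1 added, with a threshold of 1 and no test. Lengths, types and coordinates came from GENCODE M21, matched for 15429 of 15441 identifiers. The length correction subtracted the median trend over 20 bins. The members, the 57 gene lists and the way gene values were built were chosen with earlier results of these data known. Named genes were the 10 at each extreme by ratio (before and after length correction), by level where listed in 1 library, and by difference in FPKM, and up to 6 per list; others, such as B2m, Trem2, Vim, Gja1, Aqp4, Mbp, Rbfox3, P2ry12 and Stat2, were added after their values were seen, as defining genes of a list. Some genes are not reported here. Methods were tested on simulated data. Python 3.11.15, numpy 2.4.6, pandas 2.3.3 and matplotlib 3.10.9 were used.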

Additional observations from a re-analysis of the deposited data

Results flagged for a closer look

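Loci without an Ensembl identifier lay outside the comparison. Of the 306 listed at day 14, 15 had at least 1 FPKM there and were not listed in control, and 21 of the 310 listed in control had at least 1 FPKM and were not listed at day 14.

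For several lists, the median log2 ratio at day 14 had the opposite sign to that of another library against the same control, and the differences were not tested. Homeostatic microglia had a median of 0.71 on day 14 and -0.10 on day 28, and fibrous matrix genes 1.09 and -0.11. The 2 lists flagged for a closer look are given next, and they are not the only ones. Pericyte and smooth muscle markers had a median of 0.73 on day 14 and -0.27 on day 28. Red blood cell markers had a median of 0.48 on day 14, -0.81 on day 7 and -0.53 on day 28. Hbb-bs, a beta globin, was at 117 FPKM in control, 62.0 on day 7, 192 on day 14 and 79.4 on day 28, and Hba-a2, an alpha globin, at 136, 75.2, 210 and 88.4. How much blood remained in each cortex was not measured.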

How the results depend on the processing

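Counts of 1081 higher and 834 lower genes became 1822 and 1416 with no filter, 429 and 306 with a filter at 5 FPKM, 363 and 450 at a log2 threshold of 2, and 419 and 177 for transcripts of 2000 to 4000 nt. With a pseudocount of 1, 691 genes were higher. Where both libraries had to list a gene, 538 were lower, and with the start sum 945 were higher and 1911 lower. With at least 1 FPKM in control, a choice made after the data were seen, 527 were higher. Subtracting the median of the genes listed in both libraries, 0.10, gave 943 higher and 949 lower, which turned the balance from more higher to more lower genes. Lower genes also outnumbered higher ones at a log2 threshold of 2, with the start sum and with at least 1 FPKM in control. That last filter can take out higher genes but no lower ones. The correlation with length was -0.23 for the median annotated transcript and -0.20 within 2000 to 4000 nt. It was -0.34 with no filter, -0.35 with the end sum, -0.49 with a filter at 5 FPKM and -0.51 with the start sum.

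List medians moved by over 1.5-fold in 25 of 732 recomputed values, and no median that was itself over 1.5-fold from 0 changed sign. With a pseudocount of 1 they were 1.89 for hypothalamic peptides, 1.27 for interferon-stimulated genes, 2.01 for MHC class II, 1.42 for chemokines and 1.48 for reactive astrocytes. Hypothalamic peptides were at 8.09 with a pseudocount of 0.01, 3.50 with no filter and 5.72 with a filter at 5 FPKM. Border macrophages and monocytes were at 0.71 with no filter, 0.88 when listed in both libraries, 1.02 with the end sum, 2.76 within 2000 to 4000 nt and 0.59 with at least 1 FPKM in control. Chemokines were at 1.18 when listed in both, 1.12 within 2000 to 4000 nt and 0.66 with at least 1 FPKM in control. That last filter gave 1.43 for both interferon-stimulated genes and reactive astrocytes, 1.98 for MHC class II and 0.64 for pattern recognition receptors. The start sum gave -0.37 for thalamic neurons, 2.15 for MHC class I and -1.79 for calcium channels. Within 2000 to 4000 nt, metalloproteases were at 2.82 and integrins at 0.88, from 0.39 and 0.27. With at least 1 FPKM in control, metalloproteases were at -0.18, with 1 higher and 2 lower of 14, since 9 of the 23 had passed only through day 14. Of 758 recomputed ratios of named genes, 89 moved by over 1.5-fold and 0 reversed. Causes of these shifts were not tested, beyond the fewer genes that a filter leaves. No paired analysis was possible because each group is 1 library, and depth is unknown.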

Other observations

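Immediate early genes, which neurons switch on with activity, gave 1 higher and 1 lower of 21 compared at day 14, with a median log2 ratio of 0.27. Of the 19 with at least 1 FPKM in control, 0 were higher and 1 was lower, with a median of 0.22. Fos was at 3.74 FPKM in control, 16.1 on day 1, 7.09 on day 14 and 13.9 on day 28, and Arc, a synaptic regulator, at 17.6, 15.1, 32.1 and 52.0. The higher member was Atf3, a stress-induced factor, at 2.97 on day 14 and not listed in control, and the lower was Homer1.

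Over all genes compared, 6.92% were lower and 8.97% higher, and 7.4% and 4.67% over those with at least 1 FPKM in control. The counts of each list in this section are to be set beside these shares. Cholesterol synthesis genes were lower for 2 and higher for 0 of 23 compared, with a median of -0.35 and -0.37 after length correction. That count of lower genes is close to the share over all genes. Idi1, an isomerase of the pathway, was at 18.5 FPKM in control and 11.2 on day 14. Antioxidant and iron genes were higher for 5 and lower for 0 of 27, and for 2 after length correction. Hmox1, heme oxygenase, was at 2.2 in control, 65.2 on day 3 and 8.6 on day 14. Mitotic cell cycle genes gave 3 higher and 2 lower of 16, with 1 higher and 2 lower of the 13 that had at least 1 FPKM in control. Of the 16, 10 were highest at day 3, and the share of all genes highest at day 3 was not counted. Top2a, a topoisomerase of dividing cells, was at 0.786 in control, 12.8 on day 3 and 1.87 on day 14.

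Growth factor genes gave 4 higher and 3 lower of 29, and 2 higher and 3 lower of the 25 with at least 1 FPKM in control. Igf1 was at 0.833 FPKM in control, 11.2 on day 7 and 4.86 on day 14, and Grn, progranulin, at 14.7, 111 and 56.8. Nrg1 and Nrg3, the neuregulins among the lower members, were at 1.24 and 9.47 in control and 0.389 and 4.3 on day 14.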
